A study of Mus musculus with 16 samples.

Results

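Collagens were described here in sorted mouse cardiomyocytes. Every gene name on the microarray that consists of Col, a number, the letter a and a second number was taken as a collagen gene, which gave 43 of 31982 gene names. They were measured by 67 probes. For the 17 genes with more than 1 probe, the probe with the highest mean log2 value over all 16 microarrays was used. The cells came from hearts of wild-type CD1 mice. In the embryonic groups, hearts at embryonic day 15.5 (E15.5) were pooled, 20 to 30 per experiment, dissociated and sorted for living cells with the receptor ERBB-2 on their surface and with low (EL) or high (EH) amounts of integrin alpha 6 (ITGA6, also called CD49f). In the neonatal groups, 15 hearts from postnatal day 2 (P2) were pooled, depleted of non-myocytes and sorted for low (PL) or high (PH) ITGA6, without ERBB-2. Dead cells were gated out with propidium iodide. Each of the 4 groups held 4 samples from separate pools, with the numbers 2, 3, 6 and 8 at E15.5 and 2, 3, 4 and 5 at P2. At least 50000 cells per sample gave 10 ng of RNA for a single-colour Agilent microarray. Signal means the quantile normalized signal on a linear scale. It serves to compare samples for a gene, not genes with each other.

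Collagens are triple helices of 3 alpha chains, each chain encoded by a gene of its own. The fibrillar types I, III and V build the tensile fibres of the heart and are made mainly by fibroblasts. Type IV forms the meshwork of the basement membrane, the sheet that surrounds each cardiomyocyte and underlies endothelium. Type VI forms beaded filaments between both, FACIT collagens sit on fibrils, and transmembrane collagens stay anchored in the cell membrane. ITGA6, the protein used for sorting, is a receptor for laminin, another basement membrane component.

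Sequences around the starts of 6 collagen genes are shown because these genes moved in groups. Col1a2 and Col3a1 encode chains of fibrillar collagens and were lower at P2 in both fractions, and the type IV genes Col4a1 with Col4a2 and Col4a5 with Col4a6 lie head to head and were higher in the high fraction at both stages. All are from RefSeq on GRCm38.p6, printed 5′ to 3′ on the strand of the gene and ending before its outermost annotated start. Capitals mark the CCAAT box, the GC box with the letters GGGCGG, or the TATA box with the letters TATAAA, on either strand. The first lies at chr6:4505368-4505617 on the plus strand.
Col1a2: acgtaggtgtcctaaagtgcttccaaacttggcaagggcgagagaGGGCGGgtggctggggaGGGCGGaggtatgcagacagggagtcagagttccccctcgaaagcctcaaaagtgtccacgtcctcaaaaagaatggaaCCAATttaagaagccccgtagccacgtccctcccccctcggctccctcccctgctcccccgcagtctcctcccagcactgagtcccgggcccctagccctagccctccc
The second lies at chr1:45311288-45311537 on the plus strand.
Col3a1: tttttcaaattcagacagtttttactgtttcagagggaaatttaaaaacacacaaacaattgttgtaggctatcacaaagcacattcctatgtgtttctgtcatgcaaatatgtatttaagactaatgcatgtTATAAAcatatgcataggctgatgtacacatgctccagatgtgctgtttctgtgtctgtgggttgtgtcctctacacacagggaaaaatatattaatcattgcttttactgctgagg
The next pair lies on chromosome X, at chrX:141475169-141475369 on the plus strand and at chrX:141474096-141474326 on the minus strand. The starts used for their promoter windows, 141475419 and 141474076, are 1343 bases apart, and both prints stop short of these starts.
Col4a5: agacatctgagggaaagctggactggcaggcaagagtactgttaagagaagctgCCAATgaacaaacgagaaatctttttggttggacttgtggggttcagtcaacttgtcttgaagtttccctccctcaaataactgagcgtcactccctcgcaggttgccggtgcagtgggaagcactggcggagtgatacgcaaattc
Col4a6: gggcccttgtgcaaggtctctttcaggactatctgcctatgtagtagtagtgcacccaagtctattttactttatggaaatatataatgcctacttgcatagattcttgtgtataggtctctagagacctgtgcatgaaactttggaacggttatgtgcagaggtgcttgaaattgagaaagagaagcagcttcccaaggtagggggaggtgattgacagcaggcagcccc
The starts of Col4a1 (minus strand) and Col4a2 (plus strand) face each other so closely that both genes contain the same 22 bases, which are in capitals within chr8:11312801-11312830, printed on the plus strand.
Col4a1 and Col4a2: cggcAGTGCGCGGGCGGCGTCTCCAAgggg

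Promoter windows of 300 bases, 250 before and 50 after a start, were found for 35 of the 43 collagen genes, as 38 windows. The CCAAT box, read on both strands, was in 13 of these 38 windows (34.2%) and in 37.4% of all 32851 mouse promoter windows of that length. The TATAAA letters, read likewise, were in 5 (13.2%) and in 13.6% of all. The GGGCGG letters, read likewise, were in 23 (60.5%), against 35.7% of all windows. The letters of a CCAAT box and of a GC box can share bases at their ends, and the windows of Col4a1 and Col4a2 share 78 bases, so these counts are not independent. They describe letters, not binding.

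Detection came first, since it decides which collagens can be compared. A probe counted as measured on a microarray where the scanner software marked it as well above background. Of the 43 genes, 13 were well above background on all 16 microarrays, 18 on 1 to 15 and 12 on none. All 4 microarrays of a group measured 19 genes at E15.5 in the low and 23 in the high fraction, and 13 and 15 at P2. The 12 genes never measured were Col4a3, Col5a3, Col6a4, Col6a5, Col8a1, Col9a3, Col10a1, Col11a1, Col17a1, Col19a1, Col24a1 and Col28a1. Sample 2 of EH stood apart from the rest, with 46.48% of all probes well above background against 35.74% to 42.79% on the other microarrays. It measured 28 collagen genes, as did sample 8 of EH, against 27 in sample 6 and 23 in sample 3. EL samples measured 21 to 23, PL samples 13 to 17 and PH samples 15 or 16.

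**Figure D1:**
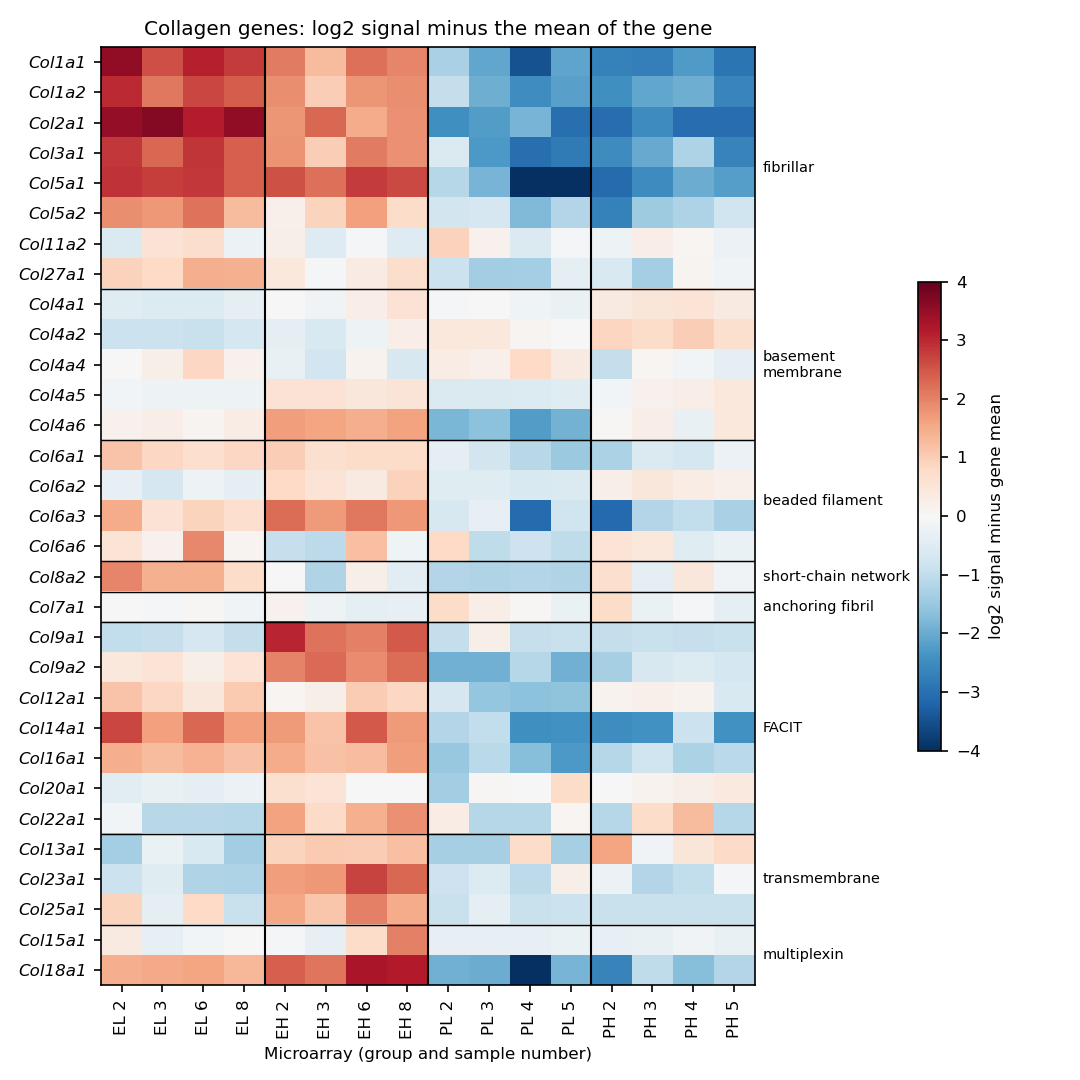
Log2 signal of the 31 collagen genes well above background on at least 1 microarray, minus the mean of the gene over 16 microarrays (colour, from -4 to 4). Columns are the microarrays by group and sample number, and genes are ordered by class. Type I, III and V genes were brighter at E15.5 than at P2, while Col4a1 and Col4a2 were dimmest in EL.

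The first comparison asked how the ITGA6high and ITGA6low fractions differ, a marker by which the study set out to separate atrial from ventricular cardiomyocytes. At E15.5, 11 collagen genes were higher in EH than in EL, Col4a1, Col4a2, Col4a5, Col4a6, Col6a2, Col9a1, Col9a2, Col13a1, Col22a1, Col23a1 and Col25a1, in a limma test with an adjusted p of at most 0.05. Over all 31982 gene names, 5.89% passed in this direction. Lower in EH were 3, Col2a1, Col8a2 and Col11a1, where 4.81% of all gene names passed. With microarrays scaled to their 75th percentile, 10 were higher and 5 lower, and with the slide as a term of the fit 10 were higher and 3 lower. With the sample number as a replicate block, 9 were higher, without Col13a1 and Col22a1, and 3 lower. At P2, 8 genes were higher in PH than in PL, where the share over all gene names was 8.07%. These were Col4a1, Col4a2, Col4a5, Col4a6, Col6a2, Col8a2, Col9a2 and Col12a1. Under 75th percentile scaling 5 were higher, without Col4a1, Col4a2 and Col8a2. Col8a2 and Col12a1 were below background on all P2 microarrays, and Col12a1 did not pass with the normexp background (adjusted p = 0.581) or with a floor at the lowest detected signal (0.311). None was lower, where 6.73% of all gene names passed. At an unadjusted p under 0.05 in the limma test, 2 were lower in PH, Col2a1 and Col4a4. After adjustment, Col4a4 passed as lower in PH when the test was limited to detected probes. With the normexp background it was Col6a4 and Col6a5 that passed, neither ever well above background. A change of at least 3-fold was reached by 7 collagen genes at E15.5, while 2.17% of all gene names passed with such a change in either direction, and by 1 at P2, Col4a6, while 3.28% of all passed. Some of these sizes depend on the treatment of dim probes. For Col8a2, Col9a1, Col13a1 and Col22a1 the dimmer group was below background and the bounds given further on are under 3-fold. The E15.5 count was 3 with a floor at the lowest detected signal. With the normexp background it was 0, also without Col2a1 and Col9a2. Both were measured on all E15.5 microarrays and lay near the limit in the main fit (3.09-fold and 3.14-fold). The median log2 fold-change over the 43 genes was -0.06 at E15.5 and 0.00 at P2, beside -0.03 and -0.01 over all gene names. All EH samples were above all EL samples for 14 genes and below for 7, which 9.36% and 11.0% of all gene names did, and all PH samples were above all PL samples for 7 and below for 1, beside 8.44% and 7.60% of all. Of the genes that passed, 6 were higher in the high fraction at both stages: Col4a1, Col4a2, Col4a5, Col4a6, Col6a2 and Col9a2. The share of all gene names higher at both stages is not given here, so this count has no baseline.

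**Figure D2:**
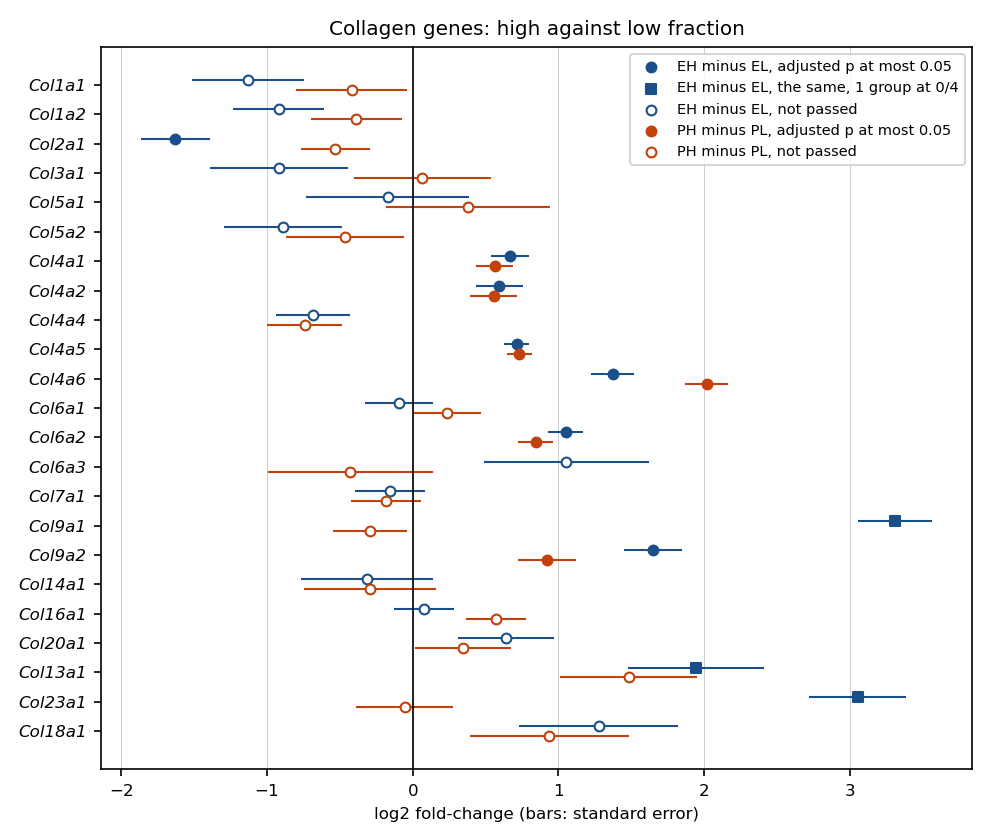
Log2 fold-change of the high against the low fraction for the 23 collagen genes that all 4 microarrays of some group measured. Blue is EH minus EL, orange is PH minus PL, bars are standard errors, and filled symbols passed (squares: the dimmer group was measured on 0 of 4 microarrays, so the plotted size depends on background). At E15.5, genes of types IV and IX other than Col4a4 lie to the right, and the type I, II and III genes lie to the left.

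Whether the fraction difference itself changed with stage was tested as an interaction. It passed for 5 collagen genes. The signed log2 difference at P2 minus that at E15.5 was above 0 for Col8a2, Col11a1 and Col12a1, where 2.40% of all gene names passed, and below 0 for Col9a1 and Col23a1, where 1.88% passed. For Col8a2, Col11a1 and Col12a1 no P2 microarray was well above background, so no size is given for their P2 difference. The calls of Col11a1 and Col12a1 lay near the limit (adjusted p = 0.0314 and 0.0347). Col11a1 missed it without EL sample 2 or 3, EH sample 2 or 6 or any single P2 sample (0.0513 to 0.0696), and Col12a1 without EL sample 2, 3 or 8, EH sample 2 or 3, PL sample 3, 4 or 5 or PH sample 2, 3 or 4 (0.0639 to 0.0794), and both missed it with the replicate block (0.0635 and 0.0808), under 75th percentile scaling (0.0901 and 0.112) and with a floor at the lowest detected signal (0.94 each). Col12a1 also missed it with the normexp background (0.423) and the slide as a term (0.0543). The interaction of Col8a2 was lost with the floor (0.768) and with the mean over its probes (0.0769). That of Col2a1, measured at E15.5 alone, did not pass (adjusted p = 0.119). It did with the normexp background (8.74e-05), detected probes alone (0.0482), the floor (0.00872) and without PL sample 4 (0.0477). That of Col9a2 (0.255) passed with the normexp background (0.000729). Those of Col25a1 (0.111) and Col27a1 (0.183) passed without EL sample 2 and without PH sample 3 (0.0481 each).

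The second comparison was between stages. It cannot be told apart from the way the cells were purified or from the slide, since all P2 samples lay on 1 slide and the E15.5 samples on the other two. More collagen genes were lower than higher at P2. In the low fraction, 18 of 43 were lower in PL than in EL, where 12.7% of all gene names passed, and 1 was higher, Col4a2, where 11.7% passed. In the high fraction, 17 were lower in PH than in EH, where 10.8% of all gene names passed, and again Col4a2 alone was higher, where 11.1% passed. In both fractions, 14 were lower: Col1a1, Col1a2, Col2a1, Col3a1, Col5a1, Col5a2, Col4a5, Col4a6, Col6a1, Col6a3, Col9a2, Col14a1, Col16a1 and Col18a1. The share of all gene names lower in both fractions is not given here, so this count has no baseline. The median log2 fold-change over all 43 genes was -0.31 in the low and -0.36 in the high fraction, beside 0.02 and 0.03 over all gene names. In bulk RNA, fewer cells of a type and less RNA per cell cannot be told apart.

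**Figure D3:**
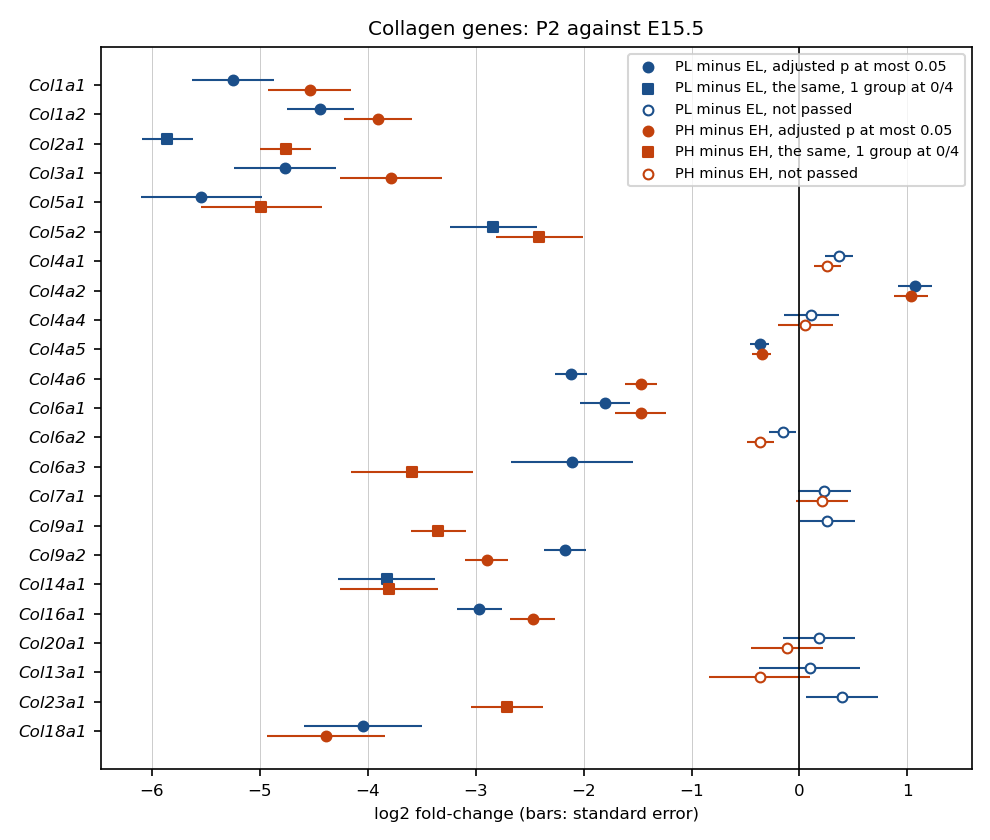
Log2 fold-change of P2 against E15.5 for the same 23 collagen genes. Blue is PL minus EL, orange is PH minus EH, bars are standard errors, and filled symbols passed (squares: the dimmer group was measured on 0 of 4 microarrays). Most fibrillar genes lie far to the left, and Col4a2 alone passed on the right in both fractions.

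Most fibrillar collagens were lower at P2. Of 11 fibrillar genes, 8 were lower in PL than in EL and 6 were lower in PH than in EH, beside 12.7% and 10.8% of all gene names. The median log2 fold-change of the 11 was -2.84 and -2.41. Both medians are the values of Col5a2, which no P2 microarray measured, so their size depends on background. Col1a1, which encodes the alpha 1 chain of type I collagen, the main fibre protein (probe at chr11:94813115-94813174 of mm9), had signals of 5473, 2783, 4000 and 3212 (EL), 1975, 1108, 2151 and 1810 (EH), 189, 110, 41.4 and 108 (PL), and 70.6, 70.1, 96.5 and 61.4 (PH). All 8 P2 samples were below all 8 E15.5 samples, and all EH samples were below all EL samples. Expression fell by 5.25 ± 0.38 (SE) on the log2 scale from EL to PL (38.0-fold, adjusted p = 3.68e-07) and by 4.54 ± 0.38 from EH to PH (23.2-fold, adjusted p = 1.84e-06). The 2.19-fold lower mean of EH than EL did not pass (adjusted p = 0.101), and PH and PL overlapped (adjusted p = 0.645). Col1a2, the partner chain of type I (chr6:4490619-4490678), had log2 fold-changes of -4.44 and -3.90 with stage, and means of 7818 ± 1980 (SD, n = 4) for EL, 4149 ± 1035 for EH, 383 ± 198 for PL and 274 ± 60.6 for PH. The difference between EH and EL in Col1a2 did not pass either (1.89-fold lower, adjusted p = 0.105). Both E15.5 differences were near the limit: Col1a1 passed without PL sample 4 (adjusted p = 0.0194) under 75th percentile scaling (0.0495), with the normexp background (0.00688) and with detected probes alone (0.0391), and Col1a2 passed without PL sample 2 (0.033) and under the same 3 settings (0.0393, 0.0351 and 0.0411).

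Col3a1, the chain of type III collagen that is laid down together with type I (chr1:45405589-45405648), had signals of 2578, 1801, 2651 and 1889 (EL), 1270, 716, 1539 and 1294 (EH), 243, 74.5, 45.3 and 51.4 (PL), and 63.9, 90.2, 156 and 56.8 (PH). The stages did not overlap in either fraction, whereas PL and PH did. Col3a1 fell by 4.77 ± 0.47 on the log2 scale in the low fraction (adjusted p = 6.16e-06) and by 3.78 ± 0.47 in the high fraction (adjusted p = 6.05e-05), and its lower level in EH than EL did not pass (1.89-fold, adjusted p = 0.349). Col5a1, a chain of the minor fibrillar type V that initiates fibril assembly (chr2:27892892-27892951), had signals of 458, 420, 441 and 320 (EL), 364, 282, 429 and 382 (EH), 28.1, 17, 3.48 and 3.47 (PL), and 7.36, 10.8, 15.6 and 13.4 (PH). It was measured on all E15.5 microarrays but on 1 of 4 in PL and 0 of 4 in PH. Where no microarray of the dimmer group was well above background, a fold is given as a lower bound: the mean log2 signal of the brighter group against the mean, over the dim group's microarrays, of the higher of the probe's own signal and the lowest signal that was well above background there. On this scale Col5a1 was at least 22.5-fold lower in PH than in EH (adjusted p = 2.45e-05), and it fell by 5.54 ± 0.56 on the log2 scale from EL to PL (adjusted p = 7.42e-06), a size that depends on background since 3 of 4 PL microarrays were below it. Its partner chain Col5a2 was at least 3.71-fold lower in PL than in EL (adjusted p = 0.000146) and at least 2.42-fold lower in PH than in EH (adjusted p = 0.000685). Here and below, the adjusted p beside such a bound is from the limma fit without a floor. It tests the difference in signal, background included, and not the bound.

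Col2a1, the chain of type II collagen known from cartilage and present in the developing valves (chr15:97806071-97806130), passed between the fractions at E15.5. Its signals were 352, 390, 268 and 353 (EL) and 104, 150, 84.5 and 108 (EH), and 5.63, 6.54, 8.40 and 3.73 (PL) and 3.66, 5.31, 3.67 and 3.69 (PH). Every EL sample was above every EH sample, and no P2 sample was well above background. Col2a1 was 3.09-fold lower in EH than in EL (log2 fold-change -1.63 ± 0.24, adjusted p = 0.000497), with differences of -1.57 and -1.94 within the slides that held both groups. It was at least 17.5-fold lower in PL than in EL (adjusted p = 3.02e-09) and at least 6.81-fold lower in PH than in EH (adjusted p = 2.44e-08). Col27a1, a fibrillar chain of cartilage, was at least 1.14-fold lower in PL than in EL (adjusted p = 0.000179), which did not pass with a floor at the lowest detected signal (0.363), with 3 of 4 EL microarrays well above background. Col11a1, a cartilage chain of type XI, passed as lower in EH than EL and as lower in PL than EL, but it was below background on all 16 microarrays and gets no fold, and the first did not pass with the normexp background (0.235), nor either with the floor (0.174 and 0.134). Col11a2 was measured on 4 of 16 microarrays and passed nowhere, and Col5a3 and Col24a1 were not measured.

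Most listed fibroblast genes, like most fibrillar collagens, were lower at P2. The summed signal of 14 fibroblast and mesenchymal genes, with vimentin (Vim) the brightest over the 16 microarrays, was 13910, 11820, 12600 and 12150 (EL), 9466, 7784, 12860 and 11810 (EH), 1451, 1746, 930 and 1640 (PL), and 1549, 2090, 1742 and 1962 (PH). None of the 14 passed between EH and EL, and 1, Postn, passed as lower in PH than PL, beside 6.73% of all gene names. With stage, 8 were lower in PL than EL and 10 in PH than EH, beside 12.7% and 10.8% of all gene names. Vim, Dcn and Fn1 were measured on all 16 microarrays and Postn on 3 of 4 in PL. Pdgfra, Thy1 and Mfap5 were well above background on all E15.5 microarrays and on no P2 microarray, and Cthrc1, Dpt, Sox9 and Twist1 on none of 16. Of the 14, 5 genes also stand in a collagen partner list below (Dcn, Dpt, Fn1, Lum and Postn). The 10 genes of an epicardial list, with Krt18 the brightest, were all lower at P2 in both fractions. Of all gene names, 12.7% were lower in PL than EL and 10.8% in PH than EH. Between fractions, 3 epicardial genes were lower in EH than EL and 2 higher in PH than PL, beside 4.81% and 8.07% of all gene names. Epicardial sums were 5313, 5645, 6353 and 5179 (EL), 2951, 2573, 3965 and 3363 (EH), 519.5 to 952.6 in PL and 824.4 to 958.0 in PH. The part of such cells in the fall of the fibrillar collagens was not tested.

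**Figure D4:**
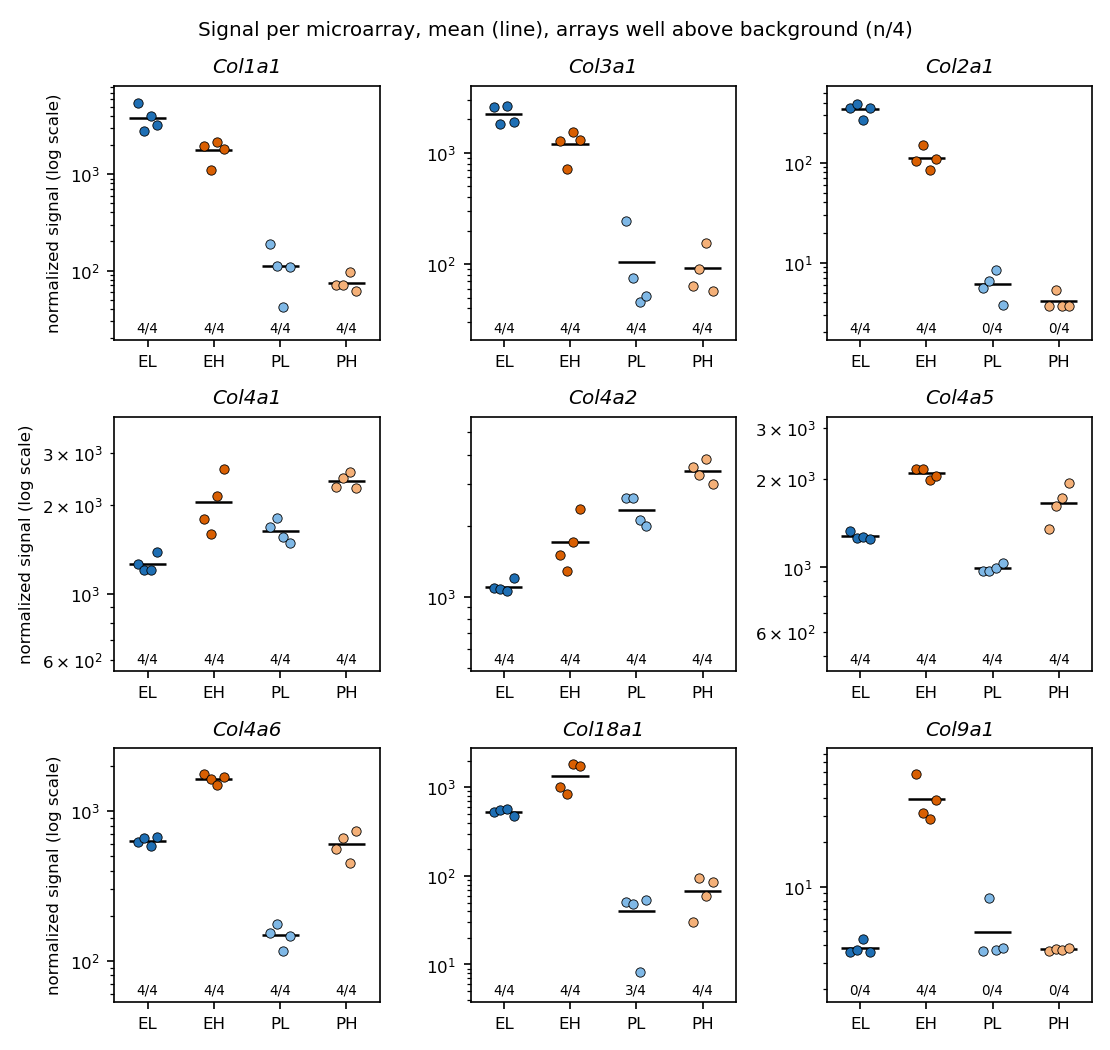
Signal of 9 collagen genes on each microarray (points, log scale), with the mean of each group (line) and the number of microarrays well above background out of 4. EL and EH are the E15.5 low and high fractions, PL and PH those of P2. Col1a1, Col3a1, Col2a1 and Col18a1 drop at P2, the 4 type IV genes are higher in the high fraction at both stages, and Col9a1 is measured in EH alone.

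Type IV collagen forms the network of the basement membrane. Of its 6 genes, 4 were higher in EH than in EL and the same 4 in PH than in PL, beside 5.89% and 8.07% of all gene names. The median log2 fold-change over all 6 was 0.63 and 0.56. Col4a1, which with Col4a2 makes the common type IV network (chr8:11199009-11199068), had signals of 1263, 1209, 1203 and 1388 (EL), 1798, 1594, 2147 and 2647 (EH), 1682, 1801, 1563 and 1485 (PL), and 2302, 2461, 2580 and 2289 (PH). At both stages every sample of the high fraction was above every sample of the low fraction. The log2 fold-change was 0.67 ± 0.13 at E15.5 (adjusted p = 0.0042) and 0.56 ± 0.13 at P2 (adjusted p = 0.00922), and the latter no longer passed when microarrays were scaled to their 75th percentile (adjusted p = 0.0536). The means of Col4a1 were not lower at P2. Its log2 fold-changes with stage of 0.37 ± 0.13 in the low fraction (adjusted p = 0.0642) and 0.26 ± 0.13 in the high fraction (adjusted p = 0.218) did not pass, but both passed without EH sample 8 (adjusted p = 0.0159 and 0.0201), the first also without EH sample 3 (adjusted p = 0.031), with the normexp background (0.0393) and with detected probes alone (0.0289).

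Col4a2, its head-to-head neighbour (chr8:11448840-11448899), had signals of 1084, 1074, 1059 and 1194 (EL), 1494, 1285, 1699 and 2347 (EH), 2629, 2609, 2110 and 1992 (PL), and 3539, 3269, 3847 and 3013 (PH). All 4 groups stood in that order, EL lowest and PH highest, with an overlap of EH and PL alone. Expression rose with stage by 1.07 ± 0.16 on the log2 scale in the low fraction (adjusted p = 0.000198) and by 1.03 ± 0.16 in the high fraction (adjusted p = 0.000336). The fraction differences were smaller, 0.60 ± 0.16 at E15.5 (adjusted p = 0.0329) and 0.55 ± 0.16 at P2 (adjusted p = 0.0361), and both lay near the limit. That at E15.5 missed it without EL sample 2, 3, 6 or 8 (adjusted p = 0.079, 0.081, 0.0817 and 0.051) and without EH sample 6 or 8 (0.0773 and 0.0692), and that at P2 without PL sample 4 or 5 (0.0945 and 0.0997) or PH sample 2, 3 or 4 (0.078, 0.0643 and 0.105), and under 75th percentile scaling both missed it (0.0844 and 0.149). With the slide as a term of the fit, the E15.5 difference missed it too (0.0568).

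Col4a5, a chain of the more restricted type IV networks (chrX:138123547-138123606), had signals of 1333, 1266, 1269 and 1256 (EL), 2179, 2177, 1991 and 2058 (EH), 971, 974, 995 and 1032 (PL), and 1353, 1621, 1731 and 1946 (PH). The fractions did not overlap at either stage. Its log2 fold-change was 0.71 ± 0.09 at E15.5 (adjusted p = 0.000124) and 0.73 ± 0.09 at P2 (adjusted p = 5.21e-05). Its log2 fold-change with stage was -0.37 ± 0.09 in the low (adjusted p = 0.00789) and -0.35 ± 0.09 in the high fraction (adjusted p = 0.0125), and neither fall passed under 75th percentile scaling (adjusted p = 0.177 and 0.245). Col4a6, its head-to-head neighbour and partner chain (chrX:137599990-137600049), showed the largest fraction difference of the family at P2. Its signals were 624, 660, 588 and 668 (EL), 1759, 1640, 1487 and 1692 (EH), 154, 176, 116 and 147 (PL), and 562, 664, 450 and 741 (PH). The fractions were apart at both stages, and the stages were apart in both fractions. Col4a6 was 2.59-fold higher in EH than EL (log2 fold-change 1.37 ± 0.15, adjusted p = 3.82e-05) and 4.05-fold higher in PH than PL (2.02 ± 0.15, adjusted p = 4.91e-07), and its log2 fold-changes with stage were -2.11 and -1.47 (adjusted p = 2.52e-07 and 8.73e-06). The P2 difference exceeded the E15.5 one by 0.65, which did not pass (adjusted p = 0.145) but did with the replicate block (adjusted p = 0.0365) and without PH sample 4 (0.0376). A second, dimmer probe of Col4a6 passed at E15.5 (0.76, adjusted p = 0.0233) but not at P2 (0.34, adjusted p = 0.367), and passed in neither stage comparison (0.27 and -0.15, adjusted p = 0.425 and 0.697). Of the other type IV genes, Col4a4 was measured on all 16 microarrays and had log2 fold-changes of -0.69 in EH and -0.74 in PH against the low fraction that did not pass (adjusted p = 0.148 and 0.0877). The E15.5 difference passed with the mean over its probes (0.0175). That at P2 passed with detected probes alone, with the replicate block (0.0436) and with the slide as a term. A further probe of Col4a4, measured on 0 of 16 microarrays, passed at E15.5 (adjusted p = 0.0142). Col4a3 was not measured.

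Endothelial genes were higher in EH as well. The summed signal of 14 endothelial and endocardial genes, with Egfl7 the brightest over the 16 microarrays and Kdr the brightest within EL and PL, was 2107, 2136, 2440 and 2333 (EL), 5735, 4749, 13270 and 12120 (EH), 929, 1023, 1922 and 2285 (PL), and 1598, 1841, 1710 and 2455 (PH). Of the 14, 11 were higher in EH than in EL and 1, Nfatc1, in PH than in PL, beside 5.89% and 8.07% of all gene names. Between stages, 4 were lower in PL than EL and 11 in PH than EH, beside 12.7% and 10.8% of all gene names. Cdh5, Tie1 and Emcn, which define endothelium, were well above background on all 4 EH microarrays and on none of EL, PL or PH. Egfl7, Kdr and Nfatc1 were measured on all 16, Plvap on 3 of 4 in EL and PL and 4 of 4 in EH and PH, and Pecam1 on 4 EH, 1 EL, 2 PL and 1 PH microarrays. At P2 the log2 fold-change was 0.95 for Nfatc1 (adjusted p = 0.0116) and 0.86 for Egfl7 (adjusted p = 0.0506). Within EH, sample 3 had the lowest endothelial sum and the lowest Col4a1 and Col4a2, whereas Col4a5 did not follow that order. Within the slides that held both E15.5 groups, the log2 difference of EH and EL was 0.57 and 0.83 for Col4a1, 0.72 and 0.65 for Col4a5 and 1.39 and 1.25 for Col4a6. The part of endothelial cells in the difference at either stage was not tested.

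**Figure D5:**
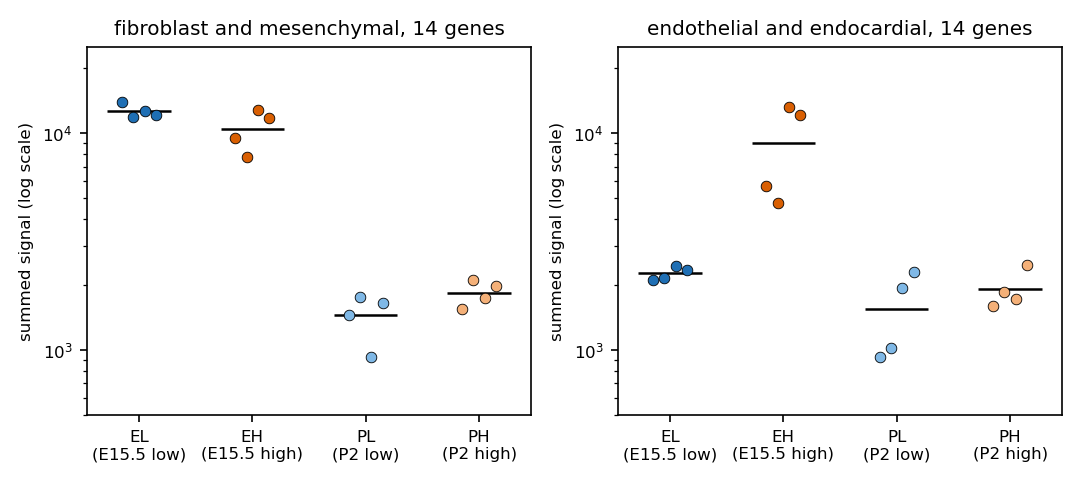
Summed signal per microarray (points, log scale) of the 14 fibroblast and mesenchymal genes (left) and the 14 endothelial and endocardial genes (right), with the mean of each group (line). Fibroblast sums were 7784 to 13910 at E15.5 and 930 to 2090 at P2, and endothelial sums were highest in EH.

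Type VI collagen forms beaded filaments next to the basement membrane of muscle cells, from 3 chains that assemble together. Of 6 such genes, 1 was higher in EH than EL and the same 1 in PH than PL, beside 5.89% and 8.07% of all gene names. With stage, 2 were lower in PL than EL and the same 2 in PH than EH, beside 12.7% and 10.8%. Col6a2 (chr10:76058931-76058990) had signals of 316, 250, 344 and 311 (EL), 696, 576, 512 and 753 (EH), 284, 282, 258 and 264 (PL), and 467, 540, 492 and 456 (PH). The high fraction was above the low fraction at both stages without overlap, by 1.05 ± 0.12 on the log2 scale at E15.5 (adjusted p = 7.67e-05) and 0.84 ± 0.12 at P2 (adjusted p = 0.000281). The second Col6a2 probe was below background on all microarrays, and with the mean over both probes neither difference passed (adjusted p = 0.187 and 1). Col6a1, on the same chromosome (chr10:76171538-76171597), instead had means of 819 ± 123 in EL and 764 ± 78.3 in EH, and of 243 ± 77.0 in PL and 283 ± 79.5 in PH. Its fractions overlapped (adjusted p = 0.919 and 0.69), and its log2 fold-changes with stage were -1.80 and -1.47 (adjusted p = 6.27e-05 and 0.000422). Col6a3, the largest chain, was at least 7.62-fold lower in PH than EH (adjusted p = 0.000415), and its log2 fold-change from EL to PL was -2.11 (adjusted p = 0.0158), which no longer passed without EL sample 2 (adjusted p = 0.0514) and was -1.49 without PL sample 4, with 2 of 4 PL microarrays above background. All EH samples of Col6a3 lay above all EL samples (125 ± 23.1 against 61.2 ± 18.7), and the difference did not pass (adjusted p = 0.38) but did with the normexp background (0.00233) and with the floor (0.00162), as did the interaction (0.525, against 0.0454 and 0.00291). Col6a6 was measured on 2 of 16 microarrays and passed nowhere, and Col6a4 and Col6a5 were not measured.

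FACIT collagens, which attach to the surface of fibrils, held both kinds of change. Col9a2, a chain of type IX (chr4:120727698-120727757), had signals of 153, 169, 137 and 170 (EL), 454, 553, 428 and 543 (EH), 30.3, 30.6, 51.9 and 30.4 (PL), and 45.8, 74.2, 78.6 and 70.9 (PH). EH was above EL without overlap, while PL sample 4 reached above PH sample 2. The log2 fold-change was 1.65 ± 0.20 at E15.5 (adjusted p = 9.51e-05) and 0.92 ± 0.20 at P2 (adjusted p = 0.00598), and with stage it was -2.17 and -2.90 in the low and high fraction (adjusted p = 2.74e-06 and 3.25e-07). Col9a1, the partner chain (chr1:24259125-24259184), had signals of 58.4, 31.7, 28.8 and 38.9 (EH) and of 3.59, 3.71, 4.43 and 3.62 (EL), 3.67, 8.36, 3.71 and 3.84 (PL) and 3.66, 3.77, 3.72 and 3.79 (PH). The 4 EH samples were well above background and the 12 others were not. Col9a1 was at least 2.60-fold higher in EH than in EL (adjusted p = 2.12e-06) and at least 2.37-fold higher than in PH (adjusted p = 8.2e-07), and its second probe was below background on all 16. Its fraction difference was larger at E15.5 than at P2 (difference of log2 fold-changes -3.60 ± 0.36, adjusted p = 8.52e-05), a size that depends on background since 3 of the 4 groups were below it.

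Col14a1 and Col16a1 fell with stage, and their fractions overlapped. Col14a1, which regulates fibril growth, was at least 4.51-fold lower in PL than EL (adjusted p = 2.9e-05) and at least 4.38-fold lower in PH than EH (adjusted p = 3.96e-05). A second, dimmer probe of Col14a1, measured on 2 of 16 microarrays, passed in neither (log2 fold-change -0.53 and 0.01, adjusted p = 0.418 and 0.995). Col16a1 was measured on all 16 microarrays and had log2 fold-changes of -2.97 and -2.47 (adjusted p = 2.66e-07 and 1.85e-06). Of its 3 dimmer probes, that measured on 8 of 16 microarrays passed too (-3.17 and -2.75), and those measured on 2 and 0 did not. Its log2 fold-change of 0.57 in PH over PL did not pass (adjusted p = 0.11), but passed with the normexp background (0.0412), with detected probes alone (0.0457) and without PL sample 3 (0.0144). Col12a1 was at least 1.15-fold lower in PL than EL (adjusted p = 4.29e-05), which did not pass with the floor (0.418), with 3 of 4 EL microarrays well above background and a second probe below background on all 16. Col22a1, a collagen of muscle junctions, was measured on 3 of 4 EH microarrays and on none of EL, and was at least 1.38-fold higher in EH (adjusted p = 0.0188). With the sample number as a replicate block, Col22a1 did not pass (adjusted p = 0.0959), nor did it with the floor (0.174) or without EL sample 3, 6 or 8 (adjusted p = 0.0554, 0.053 and 0.0549) or EH sample 2 or 8 (0.0527 and 0.059). Col20a1 passed in no comparison, and Col19a1 and Col9a3 were not measured.

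Transmembrane collagens were measured mainly in EH. Of these 4 genes, 3 were higher in EH than in EL, beside 5.89% of all gene names. Col23a1, a membrane collagen that binds an integrin (chr11:51394105-51394164), had signals of 35.6, 37.0, 72.2 and 55.3 (EH), and of 6.07, 8.03, 4.83 and 4.71 (EL), 6.25, 7.65, 5.35 and 13.0 (PL) and 9.51, 4.95, 5.66 and 10.71 (PH). Every EH sample was well above background and above all 12 others. It was at least 3.28-fold higher in EH than EL (adjusted p = 4.64e-05) and at least 2.99-fold higher than in PH (adjusted p = 5.49e-05), and the fraction difference was larger at E15.5 (difference of log2 fold-changes -3.11 ± 0.47, adjusted p = 0.00215), a size that depends on background as for Col9a1. Its 2 further probes were also higher in EH than EL (adjusted p = 0.00101 and 0.00649), and the interaction passed for 1 of them (0.0301 and 0.0695). Col13a1, a collagen of cell contacts and of the neuromuscular junction (chr10:61330216-61330585), had signals of 4.17, 8.99, 7.04 and 4.12 (EL), 19.8, 22.1, 21.9 and 24.8 (EH), 4.30, 4.28, 18.0 and 4.29 (PL), and 32.2, 9.73, 15.0 and 18.4 (PH). EL and EH did not overlap, and PL and PH did. It was at least 1.51-fold higher in EH than EL (adjusted p = 0.0185), which missed the limit with the replicate block (adjusted p = 0.0507), the normexp background (0.111) and the floor (0.0939) and without EL sample 2 or 8 or EH sample 8 (0.0617, 0.0603 and 0.0524). Its higher mean in PH than PL did not pass (adjusted p = 0.0596) but did without PL sample 4 (0.00195) or PH sample 3 (0.0369) and with detected probes alone (0.0222), with 1 of 4 PH microarrays above background. Col25a1, known from nerve and muscle, was at least 1.35-fold higher in EH than EL (adjusted p = 0.0151), not without EL sample 3 (0.0545) or EH sample 6 (0.0524), and at least 1.26-fold higher in EH than PH (adjusted p = 0.000138). Neither passed with a floor at the lowest detected signal (0.174 and 0.136), and its 3 dimmer probes, measured on 0 or 1 of 16 microarrays, passed in neither. Col17a1, the hemidesmosome collagen of skin, was not measured.

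Multiplexins are collagens of vascular and epithelial basement membranes. Col18a1, the source of endostatin (chr10:76514926-76514985), had signals of 526, 553, 573 and 478 (EL), 1014, 838, 1859 and 1734 (EH), 50.9, 48.5, 8.20 and 53.0 (PL), and 29.9, 95.9, 58.7 and 85.7 (PH). All EH samples were above all EL samples, and all P2 samples were far below both. It fell by 4.05 ± 0.55 on the log2 scale from EL to PL (adjusted p = 9.59e-05), by 3.39 without PL sample 4, which was below background, and by 4.38 ± 0.55 from EH to PH (adjusted p = 6.04e-05). The 2.42-fold higher mean in EH than EL did not pass (adjusted p = 0.23), but did without PL sample 4 (adjusted p = 0.0339), with the normexp background (0.0015) and with the floor (0.0314). A second probe of Col18a1 passed (log2 fold-change 1.21, adjusted p = 0.0455). Samples 6 and 8 had the highest Col18a1 in EH and also the highest endothelial sums given above, whose part was not tested. Col15a1, the other multiplexin, was measured in EH sample 8 alone and passed nowhere.

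Among the remaining collagens, Col8a2, a short-chain collagen of endothelial and corneal matrix, was at least 1.64-fold lower in EH than in EL (adjusted p = 0.00319), with 3 of 4 EL microarrays well above background and a second probe below background on all 16. It passed as higher in PH than PL, with no P2 sample above background and not under 75th percentile scaling (adjusted p = 0.184) or with the mean over its probes (0.478), and as lower in PL than EL, which did not pass with the floor (0.74). Col7a1, the anchoring fibril of skin, was measured on all 16 microarrays with means of 116 ± 6.19 for EL, 105 ± 19.9 for EH, 140 ± 42.9 for PL and 125 ± 48.2 for PH. It passed in no comparison, and the adjusted p of 0.616 to 0.833 does not show that the levels were equal. Col8a1, Col10a1 and Col28a1 were not measured.

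The machinery that makes and binds collagen was described from 7 lists with 91 distinct genes, of which 70 passed in at least 1 of the 4 comparisons, as did 35.6% of all gene names. The counts of each list stand beside the shares of all gene names given above: 5.89% higher and 4.81% lower in EH than EL, 8.07% and 6.73% in PH than PL, 11.7% and 12.7% in PL than EL, and 11.1% and 10.8% in PH than EH. A count of 1 in a list is near these shares. Hydroxylases and glycosyltransferases modify prolines and lysines of the chains in the endoplasmic reticulum. Of 14, 7 were higher and 1 lower in EH than EL, 6 were higher in PH than PL, 8 were lower and 2 higher in PL than EL, and 6 were lower and 1 higher in PH than EH. P4ha1, a catalytic subunit of prolyl 4-hydroxylase, was higher in PH than PL by 0.97 ± 0.16 on the log2 scale (adjusted p = 0.00105), and the lysyl hydroxylase Plod1 was higher in PL than EL by 0.95 ± 0.17 (adjusted p = 0.000983). The prolyl 3-hydroxylase Leprel2 fell by 3.41 ± 0.47 from EL to PL (adjusted p = 0.000114), and the galactosyltransferase Glt25d2 was at least 1.85-fold lower in PH than EH (adjusted p = 8.01e-07).

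Of 9 genes of folding and secretion, 6 were higher in EH than EL and 7 in PH than PL, and none was lower, beside 5.89% and 8.07% of all gene names that were higher. Fkbp7, Fkbp10, Fkbp14, Mia3 and Serpinh1 passed at both stages. Fkbp14, a prolyl isomerase of the endoplasmic reticulum, was higher in EH by 1.30 ± 0.10 on the log2 scale (adjusted p = 1.93e-06) and in PH by 1.02 ± 0.10 (adjusted p = 7.54e-06), and Fkbp10, a related isomerase, by 1.26 ± 0.09 (adjusted p = 1.05e-06) and 0.59 ± 0.09 (adjusted p = 0.000428). Serpinh1, the collagen chaperone HSP47, was higher in EH than EL by 0.43 ± 0.09 (adjusted p = 0.00561) and in PH than PL by 0.40 ± 0.09 (adjusted p = 0.00727). Its log2 fold-change with stage was -0.54 in the low and -0.58 in the high fraction (adjusted p = 0.000411 and 0.000282). Of the 9 genes, 4 were higher and 3 lower in PL than EL, and 1 higher and 3 lower in PH than EH. For the 13 processing and cross-linking genes, 6 were lower and 2 higher in PL than EL, 5 lower and 1 higher in PH than EH, 2 higher and 1 lower in EH than EL, and 1 higher and 2 lower in PH than PL. Pcolce2, which enhances procollagen cleavage, was at least 6.12-fold higher in PL than EL (adjusted p = 2.49e-06), with no E15.5 microarray above background. The lysyl oxidases Loxl1 and Loxl3 were lower in PL than EL. Loxl1 fell by 3.19 ± 0.23 on the log2 scale (adjusted p = 3.58e-07), and Loxl3 was at least 1.67-fold lower (adjusted p = 1.13e-07) and was higher in EH than EL by 1.17 ± 0.21 (adjusted p = 0.00224). Loxl2, chosen after its values were seen, was the 1 gene of the list lower in EH than EL (log2 fold-change -2.72, adjusted p = 3.99e-05), and it was also lower in PH than PL (-1.85, adjusted p = 0.00059) and in PL than EL (-3.18).

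Of 11 collagen receptors, 3 were higher in PH than PL, 2 higher and 1 lower in EH than EL, 4 lower and 1 higher in PL than EL, and 1 in each direction in PH against EH. Itga11, the integrin chain that binds fibrillar collagen, was at least 4.81-fold higher in PH than PL (adjusted p = 6.56e-06), and its E15.5 log2 fold-change was 2.71 ± 0.42 (adjusted p = 0.000787). Itga10 was higher in EH by 2.26 ± 0.23 (adjusted p = 2.51e-05) and in PH by 1.72 ± 0.23 (adjusted p = 0.000145). Itga1, the receptor chain that binds type IV collagen, had a log2 fold-change of -1.39 ± 0.14 between EH and EL (adjusted p = 2.42e-05), did not pass between PH and PL (0.12, adjusted p = 0.755), and fell by 1.75 from EL to PL (adjusted p = 9.46e-07).

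Several matrix partners of fibrils fell with stage as well. Of 15 such proteoglycans and glycoproteins, 8 were lower and 1 higher in PL than EL, and 6 lower and 2 higher in PH than EH. Fibronectin (Fn1) fell by 6.13 ± 0.25 on the log2 scale (adjusted p = 3.02e-09) and Fbln2 by 5.61 ± 0.43 (adjusted p = 5.41e-07), both from EL to PL. Between fractions, 2 were higher in EH than EL, 3 higher and 1 lower in PH than PL. Fbln1, a fibulin of basement membranes and fibrils, was higher in PH than PL by 4.84 ± 0.27 (adjusted p = 3.62e-08), and Sparc, a collagen-binding glycoprotein, by 1.70 ± 0.14 (adjusted p = 1.44e-06). Of 17 other basement membrane components, 7 were higher and 1 lower in EH than EL, 5 higher and 3 lower in PH than PL, 8 lower and 3 higher in PL than EL, and 11 lower and 3 higher in PH than EH. Laminin chain Lamb3 was higher in PH than PL by 3.61 ± 0.14 (adjusted p = 1.78e-09) and in EH than EL by 2.26 ± 0.14 (adjusted p = 4.24e-07). Lama1 was higher in EH than EL by 2.05 ± 0.43 (adjusted p = 0.00744), nidogen (Nid1), which links laminin to type IV collagen, fell by 4.27 ± 0.28 from EL to PL (adjusted p = 1.8e-07), and Sparcl1 fell by 2.60 ± 0.45 from EH to PH (adjusted p = 0.000938).

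Of 12 ligands and regulators of collagen synthesis, which include Smad7, an inhibitor of TGF-beta signalling, 5 were higher and 1 lower in EH than EL, 4 higher and 1 lower in PH than PL, 4 lower and 1 higher in PL than EL, and 7 lower and 1 higher in PH than EH. Tgfb3, a transforming growth factor, was higher in PH than PL by 1.88 ± 0.11 on the log2 scale (adjusted p = 5.03e-08) and in EH than EL by 0.95 ± 0.11 (adjusted p = 5.91e-05). Pdgfb, an endothelial growth factor, was higher in EH than EL by 3.21 ± 0.75 (adjusted p = 0.0151) and at least 5.55-fold lower in PH than EH (adjusted p = 0.0152). Ltbp1, which tethers latent TGF-beta to the matrix, fell by 1.95 ± 0.21 from EH to PH (adjusted p = 1.47e-05). The sizes given for Leprel2, Fbln2 and Nid1 from EL to PL, for Lama1 and Pdgfb in EH over EL (1 of 4 microarrays of the dimmer group above background) and for Itga11 in EH over EL (2 of 4) depend on background.

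The label of the cells was checked last. All 10 of 10 cardiomyocyte markers, with Actc1 the brightest over all, were well above background on every microarray. Of the 10, 7 were higher and 1 lower in PL than EL, 3 were higher in PH than EH, 1 was higher and 2 lower in EH than EL, and 1 was higher and 3 lower in PH than PL. Genes listed as markers of other cells were measured too. Over all gene names, 5.89% were higher and 4.81% lower in EH than EL, and 8.07% and 6.73% in PH than PL. With stage the shares were 11.7% higher and 12.7% lower in PL than EL, and 11.1% and 10.8% in PH than EH. Of 11 smooth muscle and pericyte genes, Acta2 was the brightest over all and Myh11 was measured on none. Among the 11, 5 were higher and 1 lower in EH than EL, and 2 higher and 3 lower in PH than PL. In this list 1 was higher and 5 lower in PL than EL, and 9 were lower in PH than EH. Their sums ranged from 58860 to 65920 for EL, 45590 to 57140 for EH, 22170 to 46050 for PL and 9909 to 15300 for PH. Without Acta2 the order of the fractions turned, with 17710 to 21310 for EL, 23150 to 28410 for EH, 5708 to 6893 for PL and 6740 to 11550 for PH. Of 10 leukocyte genes, with Csf1r the brightest over all and Cd68 within PL and PH, 3 were higher in EH than EL. In the same list, 1 was lower in PL than EL and 8 in PH than EH. Leukocyte sums were 506.7 to 1950 for EL, 979.5 to 9022 for EH, 316.8 to 434.4 for PL and 255.6 to 348.2 for PH. Of 8 neural genes, with Mbp the brightest over all, 1 was higher and 1 lower in EH than EL, and 1 was higher in PH than PL. Between stages, 1 was higher and 1 lower in PL than EL, and 1 was higher in PH than EH. Neural sums were 201.6 to 479.4 in EL, EH and PL and 1425 to 1607 in PH, where they were 129.5 to 172.7 without Mbp. Of 6 erythroid genes, with Hba-a1 the brightest, 2 were lower in PL than EL and 3 in PH than EH. EL sample 6 and EH samples 2 and 6 had the highest erythroid sums (30460, 17630 and 34020). The study's methods name lysis of red cells or antibodies against CD45 and Ter119 against blood cells, while the labels of these samples do not mention that step. Whether the listed genes follow such cells, and the part of such cells in the collagen differences, was not tested.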

How the data were processed

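RNA of EL, EH, PL and PH cells was measured on 16 Agilent microarrays, 4 per group. For each microarray, the authors deposited the output of Agilent Feature Extraction 10.7.3.1 with a background-subtracted intensity per spot, and for the series a table of log2 values that they had quantile normalized. Here the processed intensities were averaged per probe without outlier spots, which left 8 of 55681 probes without a value on a microarray, then quantile normalized and transformed to log2. No spot was saturated, and the number of microarrays, not a count of molecules, limits precision.

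A mean per group was fitted over all 16 microarrays with limma 3.58.1 in R 4.3.3 (lmFit, eBayes), and p-values were adjusted by Benjamini-Hochberg over all probes. The limit was an adjusted p of at most 0.05. The procedure was tested on simulated data. Python 3.11.15 with pandas 2.3.3, NumPy 2.4.6 and matplotlib 3.10.9 served for tables and plots. Probe positions are those of the files (mm9), whose place in exons was not analysed here. Samples of a group came from separate pools, and p-values measure the spread between them.

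The collagen genes and all lists were chosen with earlier results of these data known. Values in all samples were given for Col1a1, Col3a1, Col4a1 and, in each of the 4 contrasts, the 4 genes with the largest passing log2 fold-change in each direction for which 4 of 4 microarrays of the brighter group were well above background. Of each pathway list, the 2 genes with the largest such change in each direction over the 4 contrasts were named, and of each marker list the gene whose probe had the highest mean signal over the 16 microarrays (the brightest) and those measured on 0 of 16 microarrays, which are not reported here for the neural and erythroid lists.

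Both fractions of a pool may share a sample number. At E15.5, deviations from the group mean correlated between EL and EH samples of the same number (r = 0.255, 0.189, 0.45 and 0.379 for samples 2, 3, 6 and 8) over the 22250 probes detected on all 4 microarrays of a group, so the number was taken to pair them. Over all probes r was -0.008, 0.019, 0.174 and 0.233. The fit with the replicate block, which paired samples by number at both stages, is given where it changed a call. Alternatives were other scaling (75th percentile), normexp background (offset 50), the authors' own values, detected probes, a floor, the mean over the probes of a gene, slide terms, the methods' analysis of variance with a 3-fold limit, and each sample left out in turn. Those for the pathway lists were chosen after seeing the data.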

Additional observations from a re-analysis of the deposited data

Results flagged for a closer look

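For Col9a2, sample 4 of PL had a signal of 51.9 while the other PL samples had 30.3 to 30.6. On the log2 scale the gap was 0.981 of the range, which is past Dixon's limit for 4 samples. Chance gives such a gap in about 1 of 20 groups, so some are likely among the many genes and groups. Lone PL values also stood where not all 4 microarrays were well above background. These were sample 4 for Col13a1 (18.0 beside 4.28 to 4.30) and Col18a1 (8.20 beside 48.5 to 53.0), and sample 3 for Col9a1 (8.36 beside 3.67 to 3.84).

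The difference between fractions changed with stage for 14 of the collagen and partner genes named, as tested by the interaction in limma, each value being the log2 fold-change of PH over PL minus that of EH over EL. It was 3.07 for Col8a2, 1.66 for Col12a1 and 1.39 for Col11a1. All were below background at P2 and Col11a1 on all 16 microarrays, so these values rest on background signal and are not sizes of a change. It was -3.60 for Col9a1 and -3.11 for Col23a1, both measured in EH and not in the other groups, so that these sizes depend on background too. Among the named genes that make or bind collagen it was above 0 for Fbln1 (2.38), Itga1 (1.51), Lamb3 (1.36), Loxl3 (1.17), Tgfb3 (0.93) and Sparc (0.92). Partner genes not named above passed too, Nid2 (1.55), Tgfb2 (0.84), Lama4 (0.44) and Smad3 (0.43), all above 0. Among the named genes it was below 0 for Sparcl1 (-2.94), Ltbp1 (-1.79) and Fkbp10 (-0.68). Over all gene names, 2.40% passed above 0 and 1.88% below 0. Marker genes of other cells were not counted here. Itga1 had a log2 fold-change of -1.39 at E15.5 and 0.12 at P2.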

How the results depend on the processing

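Of the collagen counts, those of lower genes with stage (18 and 17) stayed between 14 and 19 under the alternatives run. Scaling to the 75th percentile, which moved the median of all genes to -0.16 (EH and EL), -0.14 (PH and PL), 0.17 (PL and EL) and 0.15 (PH and EH), gave 5 genes lower in EH than EL, 5 higher in PH than PL and 3 with a stage-dependent difference. The normexp background gave 2 genes lower in PH than PL, 2 higher in PL than EL and 0 at least 3-fold different at E15.5. Testing detected probes gave 1 lower in PH than PL, 2 higher in PL than EL and 3 with a stage-dependent difference. With the replicate block, 1 gene was lower in PH than PL (Col4a4, adjusted p = 0.0436), 9 were higher and 3 lower in EH than EL. At P2, 1 of 4 correlations between samples of the same number was under 0.1 (r = 0.375, 0.176, -0.031 and 0.542). The replicate block still paired P2 samples by number. Its P2 and interaction calls thus rest on a pairing that these correlations do not settle. The slide as a fixed term also gave 1 lower in PH than PL. A floor at the lowest detected signal gave 3 at least 3-fold different at E15.5 and 13 higher in PH than EH, of which 10 were at the floor on all 16 microarrays. The floor turned the sign for Col11a1 (0.31 from EL to PL, 0.45 from EH to PH) and for Col12a1 and Col8a2 (-0.27 each between PH and PL), all below background there, so that these are differences of floors. The mean over all probes of a gene left 0 at least 3-fold different at P2, and the methods' analysis of variance gave 7 and 1.

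Leaving out each sample in turn gave 8 to 12 genes higher and 3 to 4 lower in EH than EL, 7 to 9 higher in PH than PL, 17 to 19 lower with stage in either fraction and 5 to 8 at least 3-fold different at E15.5. It gave 0 to 1 lower in PH than PL (1 without PL sample 5), 1 to 2 higher in PL than EL (2 without EH sample 3 or 8), 1 to 2 higher in PH than EH (2 without EH sample 8), 1 to 2 at least 3-fold different at P2 (2 without PL sample 4 or PH sample 3) and 3 to 5 with a stage-dependent difference (3 without EL sample 3, EH sample 2, PL sample 3 or 5, or PH sample 2). Of the 91 partner genes, 67 to 73 passed in some comparison, and 78 with the floor. The cause of these changes was not tested. With 4 microarrays per group, signal over background limits the dim collagens, and no value of the 12 never measured is a fold.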
